A study of Mus musculus with 16 samples.

Results

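The Hox genes of the A, B, C and D clusters were examined in lumbar dorsal root ganglia of the mouse. Members were all entries of the deposited count table whose symbol is Hoxa, Hoxb, Hoxc or Hoxd followed by digits only, which gave 39 of 24982 gene entries: 11 of cluster A, 10 of cluster B, 9 of cluster C and 9 of cluster D. The choice used gene names and no measured value. Poly-A RNA was sequenced from 16 libraries in 4 groups of 4. The labels describe each library as a pool of 6 ganglia of levels L4, L5 and L6 from 2 mice of one group, taken on the injected side 14 days after an injection into the ankle joint. All mice were C57BL/6 of 10 to 12 weeks. The groups were wild type with vehicle (WT vehicle), wild type with complete Freund's adjuvant (WT CFA), TrkA/C knock-in with vehicle (KI vehicle) and TrkA/C knock-in with complete Freund's adjuvant (KI CFA). Complete Freund's adjuvant is a mineral oil suspension of killed mycobacteria that makes a joint inflamed. Titles call the vehicle saline. The knock-in construct, the sex of the mice and which mice were pooled are not given in the sources used here. Because each library is a pool, p-values measure the spread between pools and not between single mice.

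Hox genes encode homeodomain transcription factors that are switched on in the embryo in the order in which they lie along their cluster. Low-numbered paralogue groups reach far forward and high-numbered groups are confined to the rear, so the combination a cell carries records its position along the body axis. Neurons, glia and connective tissue cells of adult tissue keep much of this code. Lumbar segments are known for genes of groups 9 to 11, and groups 12 and 13 are confined further to the rear. In bulk ganglia, fewer cells with a transcript and less transcript per cell cannot be told apart.

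The labels were compared with the RNA before the Hox genes were read. Ntrk3, which encodes TrkC, lay between 29.3 and 61.4 counts-per-million units (CPM) in the 8 WT libraries and between 99.1 and 138 CPM in the 8 KI libraries. The genotype field of WT CFA 1 reads knock-in, although its title reads WT. Its Ntrk3 level of 48.4 CPM lay within the range of the other WT libraries, and it was kept in WT CFA as its title says. The summed level of the sensory neuron markers was 10431 to 12347 CPM. Of 10 spinal cord markers, the motor neuron genes Mnx1, Lhx3 and Slc18a3 and the oligodendrocyte gene Olig2 did not exceed 0.133 CPM in any library. Pax2 was present in every library, at 0.76 to 2.55 CPM. Lmx1b reached 0.672 CPM, Lbx1 0.272 CPM (KI vehicle 1) and Olig1 0.231 CPM. The list's sum of 9.66 to 18.2 CPM came mostly from Aqp4. Skeletal muscle markers summed to 1.59 to 860 CPM and were highest in KI vehicle 1. Library totals were 22742209 to 40910947 counts, of which 9118 to 15154 fell on Hox genes. A limit of 3 counts corresponds to 0.0733 to 0.132 CPM by library, for counting error only.

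Expression reached from group 1 to group 11 and ended there. A mean of at least 1 CPM over the 16 libraries was found for 29 of the 39 members. Another 3 passed the filter on low counts below that mean, among them Hoxa2 and Hoxa11 with means of 0.396 and 0.402 CPM. The other 7 did not pass it. Among these, Hoxd12 and Hoxd13 had 0 counts in all libraries. Hoxb1 had 1 count, Hoxa13 had 4 and Hoxc13 had 13 over all 16 libraries. Hoxb13 had 6 counts, all in WT CFA 3. Hoxc12 had 16 counts, of which 11 were in WT CFA 1. The members of the paralogue groups beyond group 11 were thus at or close to the limit of counting in every library.

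To compare genes, CPM was divided by exon length in kilobases (kb). Summed over the members of each paralogue group from 1 to 11, levels were lowest in groups 2 and 3 and higher in each later group up to group 9. Group 1 stood above them at 11.9 ± 1.92 CPM per kb (mean ± SD, 16 libraries), nearly all of it Hoxd1. The sums were 3.36 ± 0.32 CPM per kb for group 2, 4.46 ± 0.541 for group 3, 6.82 ± 0.536 for group 4, 12.2 ± 1.07 for group 5, 13.5 ± 1.20 for group 6, 16.8 ± 1.48 for group 7, 18.1 ± 1.31 for group 8 and 36.7 ± 2.04 for group 9. Group 10 reached 31.8 ± 5.05 and group 11 19.4 ± 7.56 CPM per kb. These sums use the exons of RefSeq-linked transcripts. With all annotated exons group 9 was at 29.5, group 10 at 31.4 and group 11 at 6.38 CPM per kb, so group 10 was then above group 9 and group 11 far below both. Groups 12 and 13 summed to 0.0326 and 0.0248 CPM per kb. Among groups 1 to 11, group 11 was the least even, with single libraries from 5.74 to 28.8 CPM per kb, while group 9 stayed between 33.3 and 40.2.

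**Figure D1:**
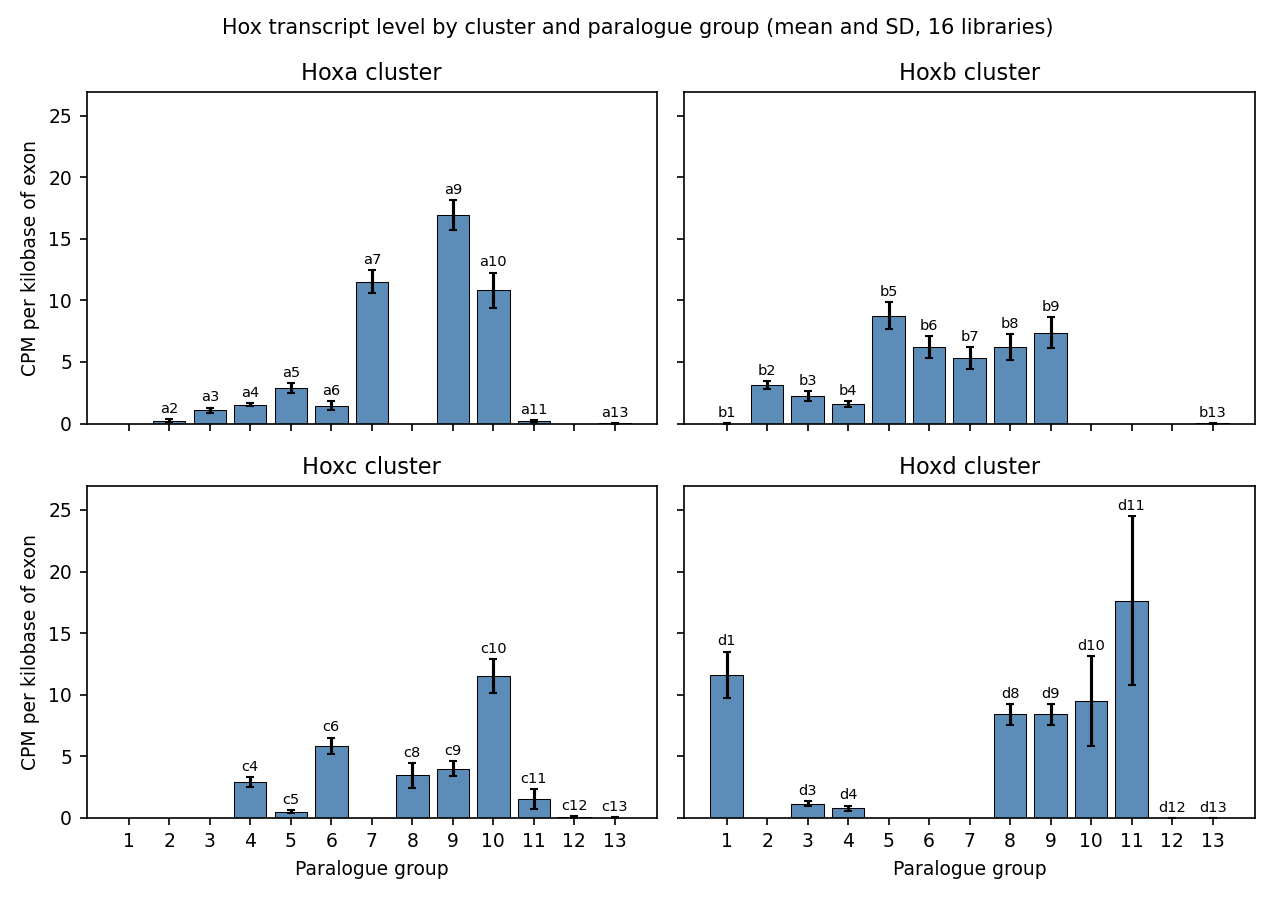
Mean CPM per kilobase of exon (vertical axis) of 38 of the 39 Hox genes by paralogue group (horizontal axis), 1 panel per cluster. Bars are means and error bars SDs over 16 libraries. On these RefSeq-linked exon lengths the highest bars are Hoxa9, Hoxb5, Hoxc10 and Hoxd11 (with all annotated exons Hoxa10, Hoxb9, Hoxc10 and Hoxd1), groups 12 and 13 are near 0, and Hoxd1 stands alone at the anterior end of its cluster.

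Within the clusters, the highest level per kb belonged to Hoxa9 in cluster A (16.9 CPM per kb), Hoxb5 in cluster B (8.76), Hoxc10 in cluster C (11.5) and Hoxd11 in cluster D (17.6). The rank of Hoxd11 rests on its short annotated transcript of 1111 bases. With all annotated exons, 4212 bases, it was 4.65 CPM per kb and ranked 12 in place of 1 among the members, and Hoxd1 was the highest of cluster D. The choice of exons also set the first place in clusters A and B: with all annotated exons Hoxa10 was at 10.4 and Hoxa9 at 9.79 CPM per kb, and Hoxb9 at 7.37, Hoxb8 at 6.21 and Hoxb5 at 5.96. Hoxc10 was the highest of cluster C either way. On the RefSeq-linked exons, Hoxa7 and Hoxa10 followed Hoxa9 in their cluster with 11.5 and 10.8 CPM per kb. In cluster B the level varied little from Hoxb5 to Hoxb9, between 5.31 and 8.76 CPM per kb. Cluster D broke the order: Hoxd1, of the most anterior group, was at 11.6 CPM per kb, above Hoxd8 and Hoxd9 at 8.40 and 8.40, while Hoxd3 and Hoxd4 were at 1.14 and 0.78. Exons of Hoxd3 overlap other genes of the same strand over 88.0% of their length and those of Hoxd4 over 45.1%, and Hoxb2 and Hoxb3 lie opposite Hoxb3os over 58.5% and 63.9%, so the counts of these 4 genes are uncertain. Smaller overlaps touch caudal genes: Gm28309 shares the strand and 23.9% of the exon length of Hoxd11 and 5.73% of that of Hoxd10, and Hoxa11 lies opposite Hoxa11os over part of its exons, so part of their counts is uncertain too. The strand setting of the counting is not given in the sources used here.

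Regions of the Hoxd cluster are shown because the results turn on Hoxd1, Hoxd10 and Hoxd11: each sequence is the 250 bases before an annotated start in RefSeq (GRCm38.p6, the mm10 assembly, plus strand). RefSeq promoters were at hand for 22 of the 39 members. Capitals mark the palindrome CACGTG, the E-box, which was noticed on reading these sequences and is the same on both strands. The sequences are those of Hoxd1 (chr2:74762730-74762979), Hoxd10 (chr2:74691641-74691890) and the second of 2 annotated starts of Hoxd11 (chr2:74682073-74682322).
Hoxd1: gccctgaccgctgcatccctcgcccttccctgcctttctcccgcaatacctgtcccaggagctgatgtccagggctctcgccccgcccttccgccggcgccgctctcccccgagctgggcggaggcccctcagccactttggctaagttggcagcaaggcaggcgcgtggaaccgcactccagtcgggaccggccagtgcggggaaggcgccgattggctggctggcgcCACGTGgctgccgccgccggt
Hoxd10: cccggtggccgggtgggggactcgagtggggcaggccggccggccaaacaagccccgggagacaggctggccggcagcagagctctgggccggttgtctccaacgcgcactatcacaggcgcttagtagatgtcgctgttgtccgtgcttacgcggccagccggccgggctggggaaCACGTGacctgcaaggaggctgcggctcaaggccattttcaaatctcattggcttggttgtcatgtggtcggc
Hoxd11: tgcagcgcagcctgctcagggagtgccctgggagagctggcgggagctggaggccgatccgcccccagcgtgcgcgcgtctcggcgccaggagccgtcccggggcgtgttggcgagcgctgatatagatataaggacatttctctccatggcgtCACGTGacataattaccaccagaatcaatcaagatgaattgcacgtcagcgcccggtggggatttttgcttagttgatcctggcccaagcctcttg
The palindrome stood in 4 of the 24 Hox promoters, those of Hoxd1, Hoxd10, Hoxd11 and Hoxd13, and in 6.02% of 32851 promoters of the same length. The region before the other Hoxd11 start does not hold it. A match is a description of the letters, and Hoxd13, which had 0 counts, holds it too. The GC content of the printed regions was 71.6%, 65.6% and 60.4%, against a median of 52.4% over all promoters.

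The tested genes of groups 9 to 11 other than Hoxa11 had more than 3 counts in every library. Hoxa9, Hoxa10 and Hoxc10 varied less than Hoxd10, Hoxd11 and Hoxc11. Their within-group SDs of log2 CPM were 0.093, 0.13 and 0.19, against a median of 0.15 over all tested genes. Among the 501 tested genes nearest in mean level to each, 280, 142 and 61 had a larger SD, so Hoxc10 was not among the steady genes. Hoxa9 had the highest CPM of all members. Its values were, in CPM, 55.5, 51.7, 56.4 and 64.5 in WT vehicle, 50.8, 52.1, 59.2 and 51.5 in WT CFA, 50.2, 51.9, 55.6 and 51.0 in KI vehicle and 55.1, 57.0, 57.5 and 53.8 in KI CFA. Hoxa10 values were, in CPM, 36.5, 33.9, 37.2 and 47.4 in WT vehicle, 32.5, 32.3, 38.2 and 36.5 in WT CFA, 31.3, 31.6, 31.6 and 29.8 in KI vehicle and 34.5, 29.7, 29.5 and 31.8 in KI CFA, so WT vehicle 4 was the highest and the other 15 lay between 29.5 and 38.2. Hoxc10 values were, in CPM, 24.7, 26.1, 22.1 and 16.9 in WT vehicle, 19.9, 22.7, 21.4 and 22.9 in WT CFA, 23.2, 19.7, 25.1 and 23.9 in KI vehicle and 20.0, 19.8, 18.8 and 24.9 in KI CFA. Hoxa9, Hoxa10 and Hoxc10 differed by at most 1.61 times between the lowest and the highest library.

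Hoxb9, Hoxc9 and Hoxd9, the other group 9 genes, were each present in all libraries. Hoxb9 values were, in CPM, 17.1, 17.7, 18.9 and 17.9 in WT vehicle, 14.6, 15.8, 21.5 and 14.0 in WT CFA, 18.7, 23.6, 17.1 and 19.2 in KI vehicle and 22.4, 24.7, 22.8 and 17.6 in KI CFA. Hoxc9 values were, in CPM, 7.39, 9.23, 8.83 and 9.76 in WT vehicle, 8.02, 7.18, 8.16 and 9.17 in WT CFA, 8.69, 9.43, 11.2 and 9.91 in KI vehicle and 10.4, 12.5, 11.4 and 10.5 in KI CFA. Hoxd9 values were, in CPM, 20.5, 20.4, 19.8 and 19.4 in WT vehicle, 18.2, 19.9, 18.1 and 18.3 in WT CFA, 17.6, 15.3, 16.8 and 17.1 in KI vehicle and 18.1, 15.5, 14.6 and 17.3 in KI CFA. Hoxd9 was the only tested member whose 8 KI libraries all lay on one side of the 8 WT libraries, with 18.1 CPM as the highest KI and 18.1 CPM as the lowest WT value. Over all tested genes, 2.3% were separated in this way, against 1 of 32 members.

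The caudal genes Hoxd10, Hoxd11 and Hoxc11 were not even: the same 4 libraries, KI CFA 1, 2 and 3 and KI vehicle 2, were the lowest of 16 in all 3 genes. Hoxd11 values were, in CPM, 26.3, 28.7, 24.9 and 20.8 in WT vehicle, 23.1, 24.0, 24.0 and 22.9 in WT CFA, 25.7, 8.61, 15.1 and 23.1 in KI vehicle and 10.7, 5.78, 6.55 and 23.4 in KI CFA. Hoxd10 values were, in CPM, 21.9, 25.9, 21.8 and 20.6 in WT vehicle, 22.0, 20.7, 17.4 and 19.4 in WT CFA, 21.7, 7.21, 16.7 and 21.4 in KI vehicle and 9.67, 4.75, 5.25 and 18.4 in KI CFA. Hoxc11 values were, in CPM, 5.13, 5.75, 4.18 and 4.10 in WT vehicle, 4.55, 4.63, 2.14 and 3.69 in WT CFA, 2.75, 0.292, 2.97 and 4.15 in KI vehicle and 2.00, 1.01, 0.676 and 2.11 in KI CFA. In Hoxd10 and Hoxd11 the 4 libraries stood clear of the next one, KI vehicle 3 at 16.7 and 15.1 CPM. In Hoxc11 the step was small, since KI CFA 1 at 2.00 CPM was followed by KI CFA 4 at 2.11 and WT CFA 3 at 2.14. KI CFA 4, KI vehicle 1 and KI vehicle 4 lay inside or next to the WT range of Hoxd10 and Hoxd11, so within each KI group some libraries were low and others were not. Hoxa11, at 0.052 to 0.716 CPM, had its 3 lowest values in KI CFA 3, KI CFA 2 and KI vehicle 2, while KI CFA 1 was at 0.445 CPM, against a median of 0.445. It had more than 3 counts in 14 of 16 libraries.

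**Figure D2:**
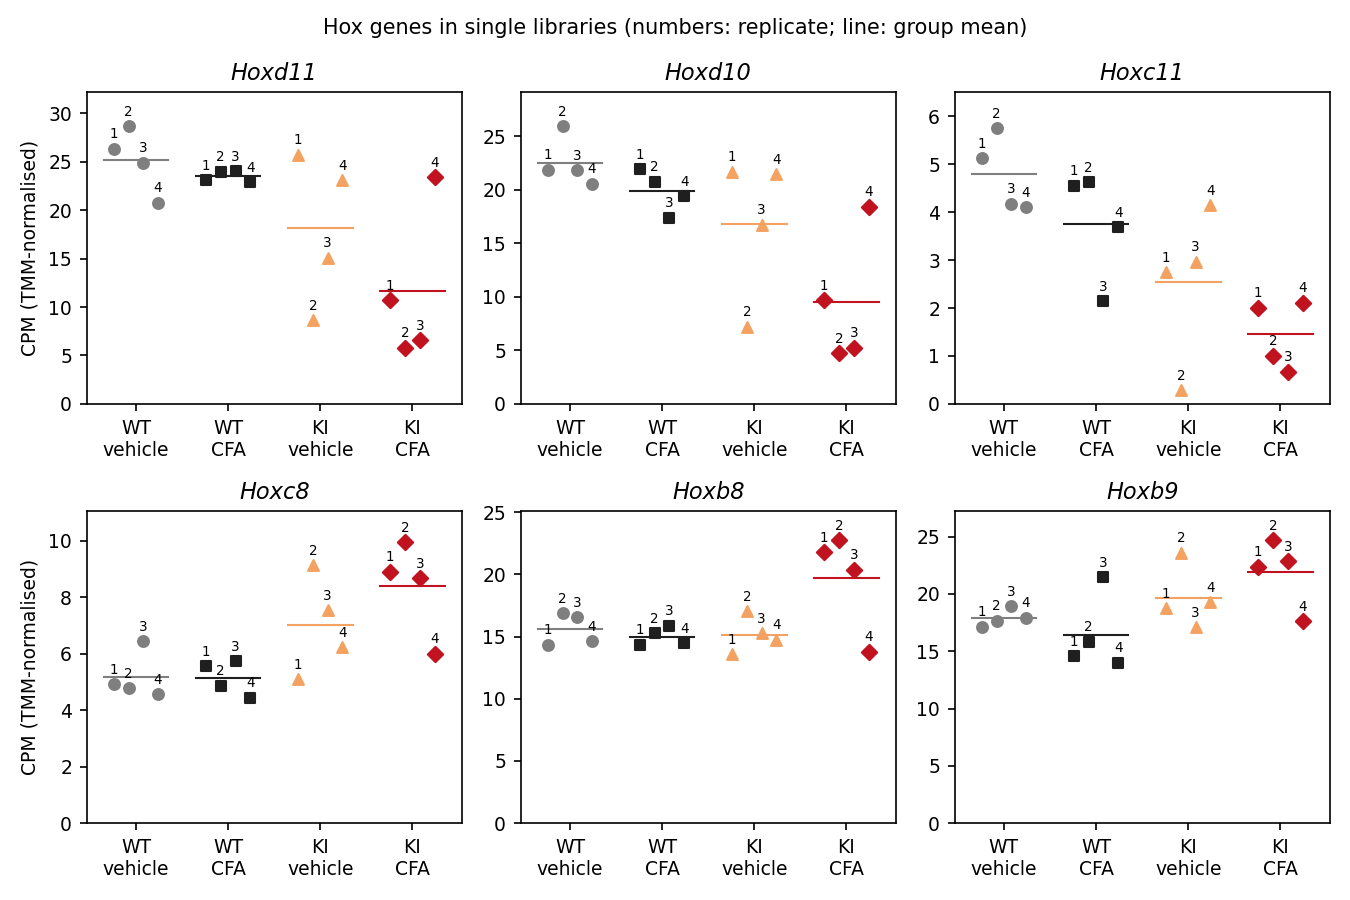
CPM (vertical axis, from 0) of 6 Hox genes in each library of the 4 groups (horizontal axis). Points are libraries with their replicate number and lines are group means. KI CFA 1, 2 and 3 and KI vehicle 2 are the lowest in Hoxd11, Hoxd10 and Hoxc11 and the highest in Hoxc8, Hoxb8 and Hoxb9.

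The same 4 libraries were the highest of 16 in Hoxb8, Hoxb9 and Hoxc8, genes of the neighbouring, more anterior groups 8 and 9. Hoxb8 values were, in CPM, 14.4, 16.9, 16.6 and 14.6 in WT vehicle, 14.3, 15.3, 15.9 and 14.5 in WT CFA, 13.6, 17.0, 15.3 and 14.7 in KI vehicle and 21.8, 22.8, 20.4 and 13.8 in KI CFA. Hoxc8 values were, in CPM, 4.91, 4.77, 6.44 and 4.56 in WT vehicle, 5.57, 4.87, 5.74 and 4.44 in WT CFA, 5.09, 9.14, 7.54 and 6.24 in KI vehicle and 8.91, 9.95, 8.68 and 6.00 in KI CFA. Hoxd8 and Hoxd1 also had their 4 lowest values in these libraries. Hoxd8 values were, in CPM, 24.8, 24.8, 23.5 and 23.6 in WT vehicle, 25.5, 25.7, 24.9 and 24.0 in WT CFA, 24.8, 18.7, 24.6 and 22.9 in KI vehicle and 20.3, 19.0, 19.7 and 22.4 in KI CFA. Of the 32 tested members, 5 had their 4 lowest values in these 4 libraries (15.6%) and 3 their 4 highest (9.38%). Over all 15507 tested genes the shares were 0.638% and 0.651%. The libraries were picked out by Hoxd10, Hoxd11 and Hoxc11, which are among the 5, so these counts and shares are a description. The members that remain of the 5 are Hoxd1 and Hoxd8. Hoxd1 met the rule narrowly, with KI CFA 3 at 18.01 CPM and KI vehicle 4 at 18.06 CPM.

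Count ratios between genes of 1 cluster do not depend on the scaling of libraries. Some of them set the same libraries apart and others did not. Hoxd10, Hoxd11 and Hoxc11 picked out the libraries, so ratios with these genes are a description. Hoxd11 counts per Hoxd9 count were 0.591, 0.373 and 0.450 in KI CFA 1, 2 and 3 and 0.561 in KI vehicle 2, and 0.897 to 1.46 in the other 12 libraries. Hoxc8 counts per Hoxc10 count were 0.445, 0.502 and 0.463 in KI CFA 1, 2 and 3 and 0.465 in KI vehicle 2, and 0.183 to 0.300 in the other 12. In both ratios KI vehicle 3 was the nearest of the other 12, at 0.897 and 0.300. The ratio of Hoxd10 to Hoxd9 also set these libraries apart, but the following ratios did not. For Hoxc11 per Hoxc10, KI CFA 4 at 0.0849 and WT CFA 3 at 0.0998 lay below KI CFA 1. Hoxb9 per Hoxb5 was highest in WT CFA 3, at 1.63. There KI CFA 1 and 3, at 1.22 and 1.18, lay below KI vehicle 1 at 1.30. Hoxd1 per Hoxd9 was 1.24 in KI CFA 3, above KI vehicle 4 and WT CFA 2, both at 1.06. The summed level of all Hox genes differed less between libraries, from 338 CPM in KI vehicle 2 to 399.7 CPM in WT vehicle 4.

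**Figure D3:**
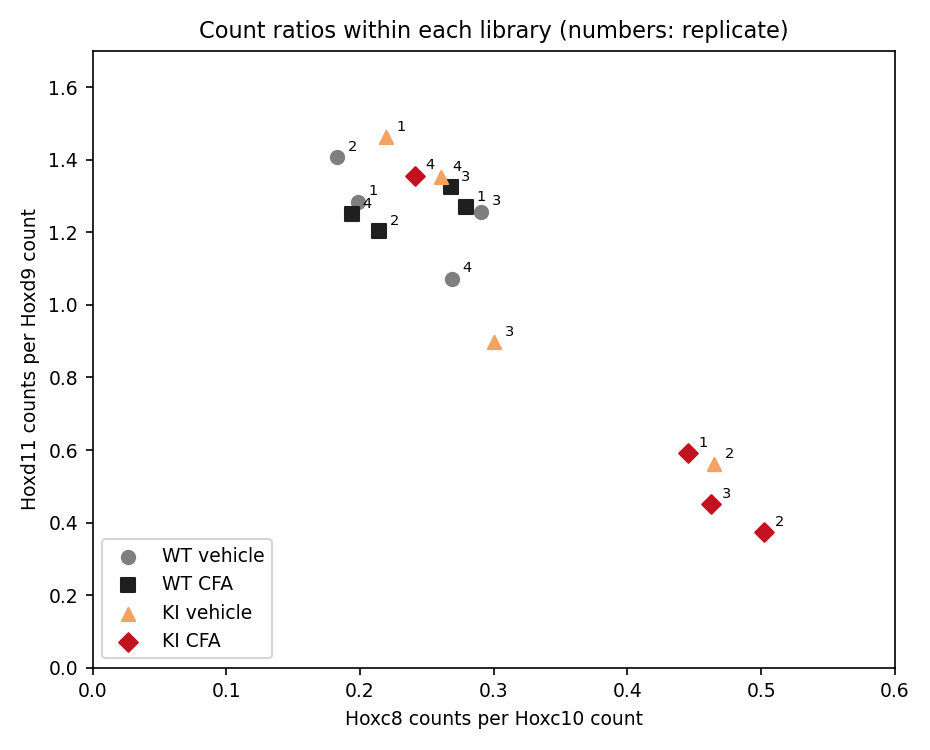
Hoxc8 counts per Hoxc10 count (horizontal axis) against Hoxd11 counts per Hoxd9 count (vertical axis) in each of 16 libraries; symbols give the group and numbers the replicate. KI CFA 1, 2 and 3 and KI vehicle 2 lie at the lower right, with Hoxd11 per Hoxd9 at 0.373 to 0.591, and the other 12 libraries at 0.897 or above.

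The spread inside groups was wide for these 3 genes. The within-group SD of log2 CPM was 0.59 for Hoxd10, 0.59 for Hoxd11 and 0.94 for Hoxc11, against a median of 0.15 over all tested genes. Among the 501 tested genes nearest in mean level to each, the gene itself included, the number with a larger SD was 1 for Hoxd10, 0 for Hoxd11 and 6 for Hoxc11. The 3 genes were taken up because their libraries were uneven, so these SDs and ranks are a description. Hotair, a noncoding RNA transcribed next to Hoxc11, was at 0.053 CPM in KI vehicle 2, 0.13 in KI CFA 3, 0.46 in KI CFA 2 and 1.02 in KI CFA 1, and at 0.375 to 1.80 CPM in the other 12 libraries, so KI CFA 1 was not low in Hotair and KI vehicle 3, at the lower end, was below KI CFA 2. In these 4 libraries the sensory neuron sum was 10917 to 12316 CPM (10431 to 12347 in the other 12), the spinal cord sum 12.1 to 17.3 CPM (9.66 to 18.2) and the skeletal muscle sum 2.07 to 53.3 CPM (1.59 to 860). The 4 libraries thus lay inside the ranges of the others in these marker lists. They also did so for satellite glia, Schwann cell, connective tissue and sympathetic neuron sums. KI CFA 2 lay above the other 12 in adipocyte markers (6.62 CPM, others up to 5.12) and bone and cartilage markers (17.6, others up to 17.4). KI CFA 1 lay above them in blood vessel markers (308 CPM, others up to 304). The labels give L4 to L6 for every library, as 6 ganglia from 2 mice on the injected side. As labelled, that is the same number of ganglia of each level in every pool. A separate record of the levels in each pool is not given in the sources used here.

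The genotype comparison asked whether the knock-in ganglia differ from wild type under each injection. Hoxd1 was lower in KI and was the member with the smallest p. It is known in mouse ganglia as a gene of nociceptive neurons. Hoxd1 values were, in CPM, 23.7, 26.0, 25.8 and 25.2 in WT vehicle, 24.5, 21.1, 25.7 and 25.2 in WT CFA, 19.1, 16.0, 20.3 and 18.1 in KI vehicle and 17.9, 17.7, 18.0 and 21.3 in KI CFA. The KI libraries reached from 16.0 to 21.3 CPM and the WT libraries from 21.1 to 26.0, and the ranges met only where KI CFA 4 passed WT CFA 2. The log2 fold change was -0.46 ± 0.09 (SE) under vehicle (edgeR adjusted p = 0.00684), -0.36 ± 0.09 under CFA (edgeR adjusted p = 0.0251) and -0.41 ± 0.06 over both injections (edgeR adjusted p = 0.000247). Without KI CFA 1, 2 and 3 and KI vehicle 2, it was -0.39 under vehicle, -0.18 under CFA and -0.29 over both. Those libraries were also the lowest in Hoxd1, and KI CFA is left at 1 library that is assumed to vary like the other groups. No call is therefore read from that fit. Under vehicle the call held without any 1 library, and under CFA it was lost without KI CFA 1, 2 or 3 or WT CFA 1, 3 or 4 (-0.43 to -0.33 over all 16 omissions). The call under vehicle was also lost without KI vehicle 1 and 4, the libraries with much muscle RNA, at -0.47 (edgeR adjusted p = 0.0599).

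Haglr, a noncoding RNA gene that lies beside Hoxd1, was lower in KI as well. Its values were, in CPM, 6.79, 6.61, 6.05 and 7.98 in WT vehicle, 7.00, 5.80, 6.70 and 7.49 in WT CFA, 4.79, 4.45, 4.33 and 4.29 in KI vehicle and 5.44, 4.80, 5.46 and 5.02 in KI CFA, and the 8 KI libraries all lay below the 8 WT libraries. Haglr fell by 0.62 ± 0.11 on the log2 scale under vehicle (edgeR adjusted p = 0.00572) and by 0.50 ± 0.08 over both injections (edgeR adjusted p = 0.000469). Under CFA its log2 fold change was -0.38 ± 0.11 (edgeR adjusted p = 0.0827). No annotated exon of another gene overlaps an exon of Hoxd1.

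**Figure D4:**
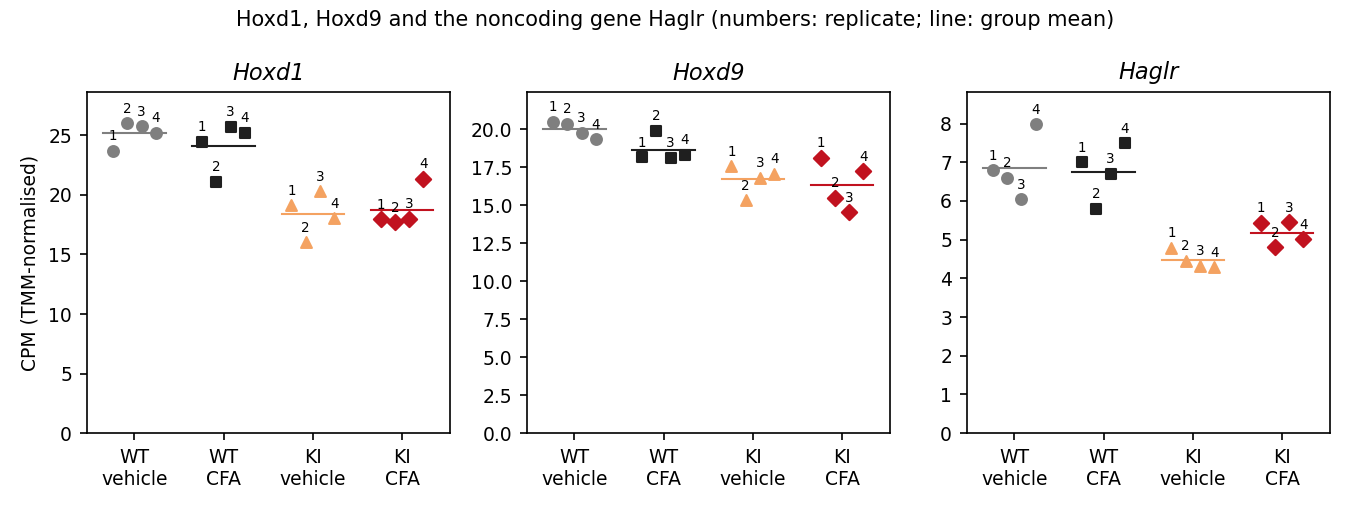
CPM (vertical axis, from 0) of Hoxd1, Hoxd9 and the noncoding gene Haglr in each library of the 4 groups (horizontal axis). Points are libraries with their replicate number and lines are group means. The KI libraries lie below the WT libraries in Hoxd9 and Haglr, and in Hoxd1 apart from KI CFA 4, which passes WT CFA 2.

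Under vehicle, Hoxd1 was the only member of 32 tested to pass (3.12%), against 4.34% of all tested genes. Members split evenly, with 16 higher and 16 lower and a median log2 fold change of -0.018 (0.0015 over all tested genes). Groups did not overlap for 4 members, Hoxa5 higher in KI and Hoxa10, Hoxd1 and Hoxd9 lower, against 14.6% of all genes. The count of 1 was 2 without WT CFA 3 or WT vehicle 2. Hoxd10 and Hoxd11 had log2 fold changes of -0.44 ± 0.33 and -0.48 ± 0.34 and did not pass (edgeR adjusted p = 0.453 and 0.41).

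Under CFA, 5 members passed (15.6%), against 2.84% of all tested genes: Hoxa7, Hoxb5, Hoxc8 and Hoxc9 were higher in KI and Hoxd1 was lower. The shares of all genes called higher and lower were 1.09% and 1.75%. Hoxc8 had a log2 fold change of 0.70 ± 0.18, and its 4 KI CFA libraries lay above all 4 WT CFA libraries (edgeR adjusted p = 0.0397). Hoxc9 had 0.46 ± 0.11 (edgeR adjusted p = 0.0257). Both lie side by side in cluster C. Hoxb5 values were, in CPM, 16.4, 17.8, 18.2 and 15.9 in WT vehicle, 13.9, 13.8, 13.2 and 16.2 in WT CFA, 14.4, 15.5, 17.3 and 19.2 in KI vehicle and 18.4, 16.9, 19.4 and 19.0 in KI CFA, with a log2 fold change of 0.37 ± 0.09 (edgeR adjusted p = 0.0361). Hoxa7 values were, in CPM, 21.0, 21.4, 21.7 and 23.8 in WT vehicle, 22.4, 20.5, 21.5 and 21.9 in WT CFA, 23.4, 24.5, 23.0 and 23.1 in KI vehicle and 25.0, 28.0, 24.4 and 24.9 in KI CFA, with 0.25 ± 0.06 (edgeR adjusted p = 0.0451); exons of Hoxa7 lie opposite Hoxaas3 over 28.8% of their length. Groups did not overlap for 7 members, against 8.13% of all genes.

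Under CFA, signs differed between caudal and more anterior genes. All 6 tested members of groups 10 and 11 had a negative log2 fold change (median -0.64). In groups 7 to 9, 7 of 9 had a positive one (median 0.25). Under vehicle, 4 of the 6 were negative (median -0.38) and 4 of the 9 positive (median -0.041). For CFA against vehicle in WT all 6 were negative as well (median -0.17). KI CFA 1, 2 and 3 are among the libraries picked out by low Hoxd10, Hoxd11 and Hoxc11, and members share libraries, so these counts are a description. The largest changes of KI against WT under CFA were Hoxc11 at -1.37 ± 0.48, Hoxd10 at -1.05 ± 0.34 and Hoxd11 at -1.01 ± 0.34. None of these passed with edgeR (adjusted p = 0.174, 0.126 and 0.16). With limma-voom and quality weights, Hoxd10 and Hoxd11 passed under CFA, at -1.36 and -1.27 (adjusted p = 0.0241 and 0.028). Without the 4 libraries KI CFA 1, 2 and 3 and KI vehicle 2, Hoxc8 was at 0.22, Hoxd10 at -0.11 and Hoxd11 at -0.0045. Those libraries were picked out by low Hoxd10, Hoxd11 and Hoxc11 and were the highest in Hoxc8. Values nearer to no difference thus follow from the choice, and that fit leaves KI CFA at 1 library. The count of 5 fell to 0 without KI CFA 3 or WT CFA 1. It fell to 1 without KI CFA 1, KI CFA 2, WT CFA 2 or WT CFA 3. It was 2 without WT CFA 4, 3 without KI vehicle 3 or WT vehicle 1, and 8 without KI CFA 4. Hoxa7 lost its call in 13 of the 16 omissions, Hoxc8 in 9, Hoxb5 in 6 and Hoxc9 in 5.

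**Figure D5:**
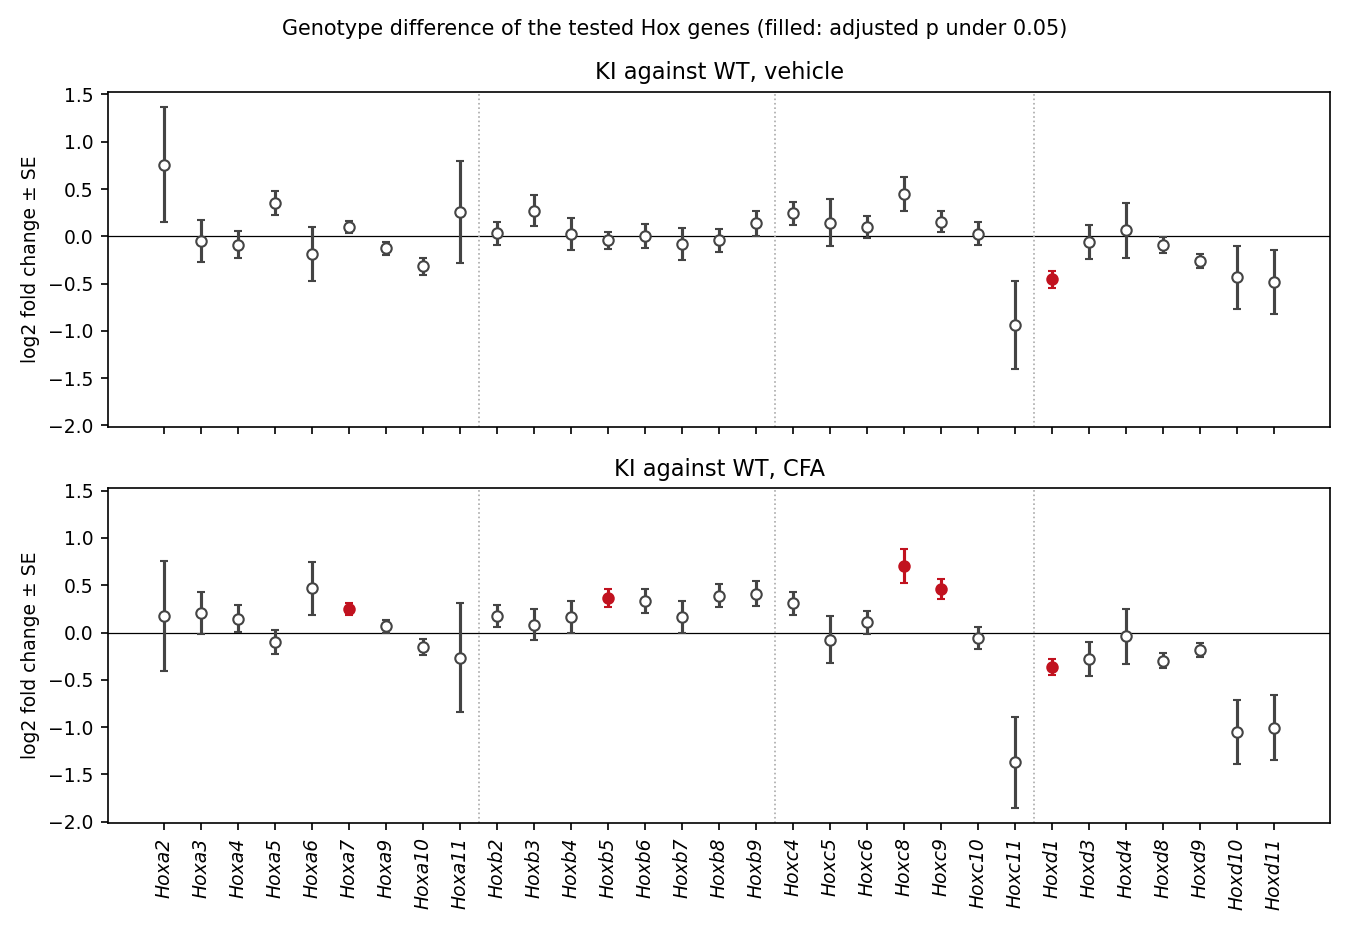
log2 fold change of KI against WT with its SE (vertical axis) for 31 of the 32 tested Hox genes in cluster order (horizontal axis), under vehicle (upper panel) and CFA (lower panel); filled red points passed an edgeR adjusted p of 0.05. Hoxd1 passed in both panels, and under CFA all 6 genes of groups 10 and 11 lie below 0 while Hoxa7, Hoxb5, Hoxc8 and Hoxc9 passed above 0. Under vehicle 4 of those 6 genes lie below 0.

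Over both injections, 9 members passed (28.1%), against 8.96% of all tested genes. Hoxa7, Hoxc4, Hoxc8 and Hoxc9 were higher in KI, and Hoxa10, Hoxc11, Hoxd1, Hoxd8 and Hoxd9 were lower. The shares of all genes were 4.33% higher and 4.64% lower. The sizes were mostly small: 0.17 ± 0.05 for Hoxa7, 0.28 ± 0.08 for Hoxc4, 0.31 ± 0.08 for Hoxc9, -0.24 ± 0.06 for Hoxa10, -0.19 ± 0.06 for Hoxd8 and -0.22 ± 0.05 for Hoxd9 on the log2 scale. Hoxc8 at 0.57 ± 0.13 and Hoxc11 at -1.15 ± 0.33 were larger. Hoxc4 values were, in CPM, 6.01, 5.50, 4.66 and 5.47 in WT vehicle, 5.38, 5.04, 5.02 and 4.76 in WT CFA, 5.67, 6.63, 6.04 and 7.32 in KI vehicle and 6.55, 7.13, 6.03 and 5.34 in KI CFA. Hoxd10 and Hoxd11, at -0.74 ± 0.24 and -0.74 ± 0.24, had edgeR adjusted p = 0.0581 and 0.0612. The count of 9 was 13 without KI CFA 4 and 5 without KI CFA 2, KI CFA 3 or WT CFA 4. Leaving out KI CFA 1, 2 and 3 and KI vehicle 2 together leaves KI CFA at 1 library, so no count is given for that fit. Hoxa7, Hoxc8, Hoxc9, Hoxd1 and Hoxd9 kept their call when any 1 of the 16 libraries was left out, while Hoxa10, Hoxc11, Hoxd8 and Hoxc4 lost theirs in 5, 10, 12 and 13 of the 16 omissions, keeping their sign. Markers of other tissues differed between KI and WT in the same comparison. Of 9 skeletal muscle markers, 7 were called higher in KI (median log2 fold change 4.05), with summed levels of 1.62 to 860 CPM in KI and 1.59 to 78.6 CPM in WT libraries. Of 8 connective tissue markers, Pdgfra and Fn1 were higher by 0.40 and 0.76 on the log2 scale, with sums of 440 to 841 CPM in KI and 358 to 613 CPM in WT. Of 6 blood vessel markers, Rgs5 was higher by 0.16, and of 5 bone and cartilage markers Ibsp was lower, at -0.67. With a skeletal muscle score as covariate the count of 9 was 5, as Hoxa7, Hoxa10, Hoxc4 and Hoxc9 lost their call and kept their sign, and that of 5 under CFA was 3. The part of the connective tissue and vessel markers in the result was not tested. The comparisons under vehicle, under CFA and over both share their libraries.

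A test of any difference among the 4 groups called 2 of 32 members, Hoxc8 (edgeR adjusted p = 0.0393) and Hoxd1 (edgeR adjusted p = 0.00259), or 6.25%, against 5.11% of all tested genes. The count was 1 without KI CFA 2, KI CFA 3, KI vehicle 3, WT CFA 1, WT CFA 2 or WT vehicle 1, 4 without KI vehicle 2 or WT vehicle 4, and 5 without KI CFA 4.

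The injection itself was compared within each genotype. No member passed for CFA against vehicle in WT, in KI or over both genotypes, nor for the interaction of genotype and injection, with edgeR, DESeq2 or limma-voom. The shares of all genes called by edgeR were 0%, 0%, 0.0258% and 0%. At an unadjusted p under 0.05, edgeR listed Hoxb5 and Hoxb6 in WT, Hoxb8 and Hoxd10 in KI, 0 members over both genotypes and Hoxa5, Hoxb5 and Hoxb8 in the interaction, against 6.96%, 5.68%, 6.57% and 6.29% of all genes. Hoxb6 values were, in CPM, 8.17, 8.35, 9.57 and 8.21 in WT vehicle, 6.52, 6.28, 6.66 and 8.07 in WT CFA, 6.52, 9.25, 9.11 and 9.48 in KI vehicle and 8.05, 9.35, 9.41 and 7.94 in KI CFA. In WT the 4 CFA libraries of Hoxb6 lay below the 4 vehicle libraries, with a log2 fold change of -0.31 ± 0.12, and that of Hoxb5 was -0.26 ± 0.09. Groups did not overlap for 2 members in WT, Hoxa5 higher and Hoxb6 lower, against 3.02% of all genes. In KI, Hoxb8 had 0.37 ± 0.12, which was -0.075 without KI CFA 1, 2 and 3 and KI vehicle 2. Over both genotypes the smallest p belonged to Hoxd10, at -0.49 ± 0.24 (edgeR adjusted p = 0.773), and Hoxb5 had an interaction of 0.41 ± 0.13 (edgeR adjusted p = 0.718).

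The WT libraries also carry numbers in their source names, whose meaning is not given in the sources used here. Numbers 6, 7, 8 and 9 were compared with 1, 2, 4 and 5, with the injection as a covariate. With edgeR, DESeq2 and limma-voom, 0 of 32 members passed, against 0.439% of all genes with edgeR, and 4 members had an unadjusted p under 0.05 with edgeR (23.7% of all genes): Hoxa10, Hoxb3, Hoxc11 and Hoxd10. Without WT vehicle 3 the count of 0 was 1. Hoxc11 differed by -0.52 ± 0.17 and Hoxd10 by -0.20 ± 0.08 on the log2 scale. The low caudal libraries among KI carry the numbers 5, 6, 9 and 2.

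MicroRNAs of the miR-196 family, encoded inside Hox clusters A, B and C, are known to act on Hox messengers. Their target sites are shown because Hoxa7 and Hoxc8, both called higher in KI under CFA, hold them. Capitals mark the seed in the microRNA and its complement in the site, from RefSeq for the microRNA and from GENCODE M21 for the sites.
miR-196a-5p: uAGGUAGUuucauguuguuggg
Hoxa7 site: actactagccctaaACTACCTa
Hoxc8 site: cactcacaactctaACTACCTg
The motif ACTACCT, searched on the messenger strand, stood in the 3′ UTR of 9 of 39 members (23.1%) and of 5.71% of 19278 genes. Hoxa7 held it 4 times and Hoxc8 held it 2 times, while Hoxb5 and Hoxc9, called in the same direction, held it 0 times. The median 3′ UTR was 960 bases in Hox genes and 859 bases over all. Mature microRNAs were not measured in these poly-A libraries.

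Partners and regulators of Hox proteins were counted in the same way. Of 9 cofactor genes, 2 passed over both injections (22.2%, against 8.96% of all tested genes), 1 under vehicle (11.1%, against 4.34%) and 0 under CFA (1 at an unadjusted p under 0.05 with edgeR). Pbx3 and Pknox1, homeodomain partners that bind DNA with Hox proteins, were higher in KI over both injections, by 0.27 ± 0.06 (edgeR adjusted p = 0.00746) and 0.26 ± 0.08 (edgeR adjusted p = 0.0493). Pbx3 also passed under vehicle, at 0.33 ± 0.08 (edgeR adjusted p = 0.0389). Of 18 Polycomb and trithorax regulators, which keep Hox genes silent or active, 1 passed over both injections (5.56%): Ezh1 was higher by 0.14 ± 0.03 (edgeR adjusted p = 0.0141). Gdf11, a signalling factor that sets trunk Hox expression in the embryo, fell by 0.22 ± 0.06 over both injections (edgeR adjusted p = 0.0172).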

How the data were processed

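Polyadenylated RNA was sequenced as single-end 50-base reads per the labels. The authors deposited raw counts per gene, with no normalisation. The submitters' processing notes name HTSeq 0.6.1p1, TopHat2 2.1.1, SAMtools 1.5, Bowtie2 2.3.5.1, bcl2fastq 2.20, FastQC and the mm10 build; annotation and strand setting are not given in the sources used here. Groups follow titles. No 2 libraries of a group agreed within sampling noise.

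Counts were filtered (edgeR filterByExpr, 15507 genes kept), scaled by TMM and tested in R 4.3.3 with edgeR 4.0.16 (quasi-likelihood, 1 model of 4 groups), with Benjamini-Hochberg adjustment over all tested genes and a threshold of 0.05. DESeq2 1.42.0 and limma 3.58.1 (voom with quality weights) were alternatives. CPM are TMM-scaled, and lengths per kb are RefSeq-linked GENCODE M21 transcripts. Members, lists and alternatives were chosen with earlier results of these data known. Named are members that passed a test, those of groups 9 to 13 above 0.5 CPM, the highest per cluster and, where none passed, the smallest p; 2 alternatives about 4 libraries were added after seeing the data. Values of 1 member, which stays in all counts and sums, are not reported here. On simulated counts of 15507 genes for KI against WT under CFA, 28% of 50 genes changed by 1.25-fold, 58% of 50 changed by 1.5-fold and 80% of 50 changed by 2-fold were recovered, with 6 false calls among 136.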

Additional observations from a re-analysis of the deposited data

Results flagged for a closer look

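Within groups of 4, 1 library stood far from the other 3 in 10 of 128 sets of 1 tested member and 1 group (7.81%, against 5.87% over all tested genes). Chance alone marks about 1 in 20 such sets. Hoxd1 in KI CFA 4 was at 21.3 CPM against 17.7 to 18.0 CPM in the other 3, and this is also the KI CFA library with the highest Hoxd10 and Hoxd11. Hoxb6 was low in KI vehicle 1, at 6.52 CPM against 9.11 to 9.48 CPM, and high in WT vehicle 3, at 9.57 CPM against 8.17 to 8.35 CPM. In WT CFA 4, Hoxa2 was at 0.836 CPM against 0.159 to 0.249 CPM and Hoxa3 at 3.17 CPM against 2.28 to 2.35 CPM. In WT CFA 2, Hoxa4 was at 2.55 CPM against 2.26 to 2.28 CPM, Hoxb3 at 5.14 CPM against 8.13 to 8.53 CPM and Hoxd9 at 19.9 CPM against 18.1 to 18.3 CPM. Hoxa9 in WT CFA 3 was at 59.2 CPM against 50.8 to 52.1 CPM. Hoxa5 in WT vehicle 4 was at 3.99 CPM against 4.95 to 5.03 CPM.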

How the results depend on the processing

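Counts of members that passed are given for the test of any difference, KI against WT under vehicle, under CFA and over both injections, which were 2, 1, 5 and 9. They were 8, 3, 8 and 10 with DESeq2 and 6, 2, 9 and 11 with limma-voom, whose calls include Hoxd10 and Hoxd11. They were 2, 2, 5 and 9 with a filter at a mean of 1 CPM, 2, 1, 3 and 5 with a skeletal muscle score as covariate, and 2, 0, 4 and 8 without KI vehicle 1 and 4. With the mean log2 CPM of Hoxd10, Hoxd11 and Hoxc11 as covariate they were 0, 2, 0 and 1. No counts are given without KI CFA 1, 2 and 3 and KI vehicle 2, since KI CFA is then left at 1 library. Both settings were chosen after seeing the data, and the cause of each change was not tested. The split of WT libraries by source-name number called 0 members and 1 with no filter on low counts. Leaving out each replicate in turn gave 1 to 5, 1 to 2, 0 to 8 and 5 to 13 members, 0 to 1 for the split, and 0 to 0 for the injection comparisons and the interaction; 29 members reached 1 CPM each time. Hoxb8 in KI, CFA against vehicle, turned from 0.37 to -0.075 without KI CFA 1, 2 and 3 and KI vehicle 2. Same-numbered libraries shared only a number (correlations of -0.21 to 0.13 over 24 pairs, and 2 of 16 libraries closest to their own number); with a replicate block the counts were 2, 1, 4 and 9. Depth limits Hoxa11 and groups 12 and 13, which lie near the limit of 3 counts.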
